A study of Mus musculus with 10 samples.

Results

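Costameres are protein assemblies under the muscle cell membrane that line up with the Z-discs and tie the contractile apparatus to the extracellular matrix. In their integrin branch a laminin receptor spans the membrane, talin and vinculin connect it to actin, and a complex of integrin-linked kinase, a PINCH protein and a parvin sits on its inner face. Desmin, the muscle intermediate filament protein, runs between neighbouring Z-discs and reaches out to the costameres. Heart and skeletal muscle both build these structures, and mutations in desmin and in integrin alpha 7 are known causes of muscle disease.

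Described here are 10 genes of this system, chosen by symbol and all found among the 23337 genes of the count files. They are Itga7 and Itgb1 (the receptor), Itgb1bp2 (melusin), Vcl (vinculin), Tln1 and Tln2 (talins), Ilk, Lims2 and Parvb (the kinase complex) and Des (desmin). Bulk RNA-Seq was performed on left ventricle (LV) and skeletal muscle (SkM) of 5 mice, C57BL/6 and 129SvEv hybrids 17 weeks old, giving 10 libraries of 1 tissue of 1 mouse each. The groups were 2 WT LV, 2 WT SkM, 3 E0del/+ LV and 3 E0del/+ SkM libraries. E0del/+ mice are heterozygous for a deletion of E0, a conserved enhancer in intron 1 of the titin gene Ttn, and WT mice carry both copies of it. In the labels the replicate number of a mouse also serves as its batch, so batches 1 and 2 hold both genotypes and batch 3 holds E0del/+ alone. The sex of the mice is not in the labels.

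A library held 11010021 to 17484873 gene counts in total (median 14050602). Levels are given as CPM (counts per 10⁶ gene counts), and levels of different genes are compared only as RPKM (CPM per kilobase of exon). At this depth the lowest count of any of the 10 genes in any library was 217, for Lims2 in WT SkM replicate 2, which is 12.4 CPM with a 95% Wilson interval of 10.9 to 14.2 that covers counting error only. Each gene passed the filter on low counts in every comparison.

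The tissue labels were checked against marker genes. The 7 ventricle markers, led by the myosin Myh6, summed to between 77824 and 88572 CPM in the LV libraries other than WT replicate 2 and to between 206 and 2286 CPM in SkM. The 7 markers of fast skeletal muscle fibres, led by Myh4, summed to between 106 and 122 CPM in those 4 LV libraries and to between 103750 and 112120 CPM in SkM. WT LV replicate 2 stood apart, with 60702 CPM of ventricle markers and 25616 CPM of fast fibre markers. It was therefore left out of the comparison of tissues and is described on its own, and comparisons of genotype in LV are given with and without it.

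The 10 genes lie on 10 different chromosomes. In the mm10 coordinates of the files Itga7 is on chromosome 10 (128933813 to 128958284), Itgb1 on 8 (128685654 to 128733579), Itgb1bp2 on X (101449109 to 101453541), Vcl on 14 (20929433 to 21033673) and Tln1 on 4 (43531513 to 43562583). Tln2 is on chromosome 9 (67217085 to 67559703), Ilk on 7 (105736590 to 105742925), Lims2 on 18 (31931507 to 31958619), Parvb on 15 (84232043 to 84315609) and Des on 1 (75360344 to 75367715). Values are totals over all exons of a gene. Exons of 3 of the 10 genes share bases with a gene on the other strand, and the library kit does not mark strand. Lims2 shares 188 of its 1688 bp with Gpr17 (16.8 CPM on average in LV and 2.09 CPM in SkM), Ilk shares 137 bp with Rrp8 and 32 bp with Taf10, and Itga7 shares 8 bp with Mettl7b.

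Together the 10 genes took between 0.433% and 0.468% of the gene counts of an LV library and between 0.416% and 0.533% in SkM. Desmin dominated the sum. It made up 45.1% to 53.1% of the summed CPM in LV and 69.4% to 80.2% in SkM. Without it, the other 9 genes summed to between 2103 and 2389 CPM in LV and between 1052 and 1276 CPM in SkM.

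**Figure D1:**
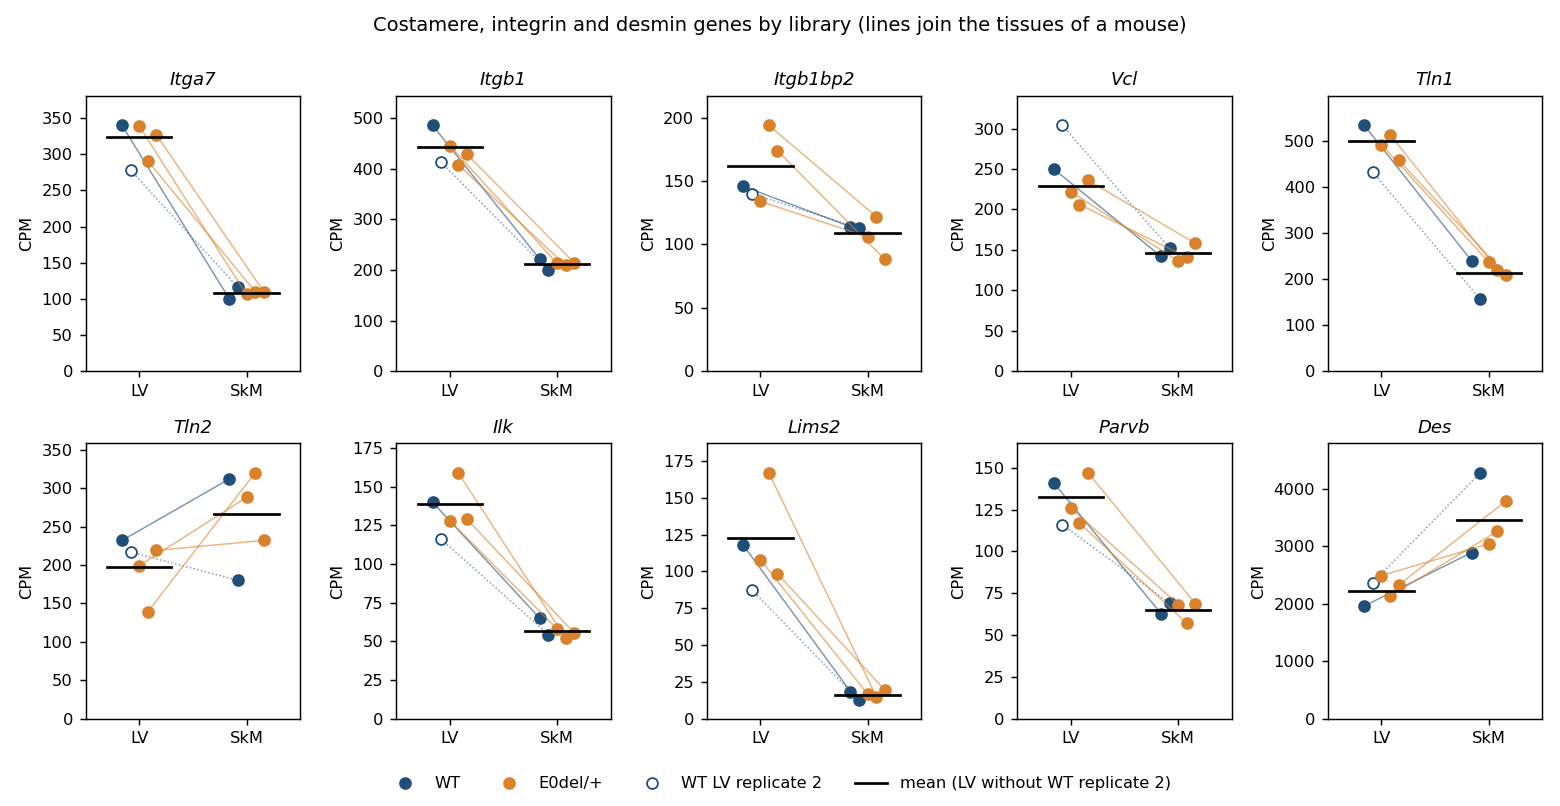
Level of each of the 10 genes in each library, as CPM on linear axes that start at 0. Points are libraries (WT blue, E0del/+ orange), lines join the tissues of 1 mouse, black bars are means, and WT LV replicate 2 is the open point. In 6 genes, among them Itga7 and Lims2, every LV library lies at least 1.5 times as high as every SkM library, while Des lies lower in every LV library.

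Per length, desmin was the most abundant of the 10 in both tissues, at 1035 ± 107 RPKM in LV (SD, n = 4) and 1605 ± 267 RPKM in SkM (SD, n = 5). Itgb1bp2 came next, at 125 ± 21 RPKM in LV and 84 ± 9.82 RPKM in SkM, which is 8.25-fold and 19.1-fold below desmin. In LV it was followed by Itgb1 (105 RPKM), Itga7 (80.7), Ilk (74.1), Lims2 (72.9), Tln1 (58.5), Vcl (43.7), Parvb (35.9) and Tln2 (16.3). Of these neighbours, Itgb1bp2 and Itgb1, Itga7 and Ilk, Ilk and Lims2, Lims2 and Tln1, and Vcl and Parvb had overlapping ranges. The order in SkM was Itgb1 (50.4 RPKM), Ilk (30.3), Vcl (27.8), Itga7 (27), Tln1 (24.9), Tln2 (22), Parvb (17.6) and Lims2 (9.71), and the 5 genes from Ilk to Tln2 overlapped their neighbours, as did Tln2 and Parvb. Lims2 thus stood in the middle of the order in LV and last in SkM, where all 5 libraries had less of it than of Parvb.

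LV was compared with SkM within mice, to describe how the equipment of this adhesion system differs between heart and skeletal muscle. In the fit over all genes 8 of the 10 genes differed. Lims2, Itga7, Ilk, Tln1, Parvb and Itgb1 were higher in LV, Tln2 and Des were lower, and Vcl and Itgb1bp2 did not pass the test (edgeR, libraries scaled by TMM, threshold 0.05 on the adjusted p). Among all 13375 genes tested 61.3% were called, 31.5% higher and 29.8% lower in LV, so that a called gene is not unusual in this comparison. The median absolute log2 fold change was 0.554 for the 10 genes and 0.681 for all genes.

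These values depend on the scaling. A few genes take a larger share of the counts in SkM, the top 10 genes holding 27.2% to 29.5% there and 12.5% to 14.5% in LV, and TMM raised SkM relative to LV by 0.65 on the log2 scale on average (range over 4 mice 0.51 to 0.93). When libraries were scaled by their total counts, the median log2 fold change of all genes was 0.67 in place of 0.02, and 70.2% of the genes were called, 57.5% higher and 12.7% lower in LV. Of the calls, 81.9% were then higher in LV, against 51.3% under TMM. All 10 genes passed the test on that scale, 8 higher in LV and 2 lower. CPM values below are on the scale of total counts, and fold changes are under TMM unless stated.

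**Figure D2:**
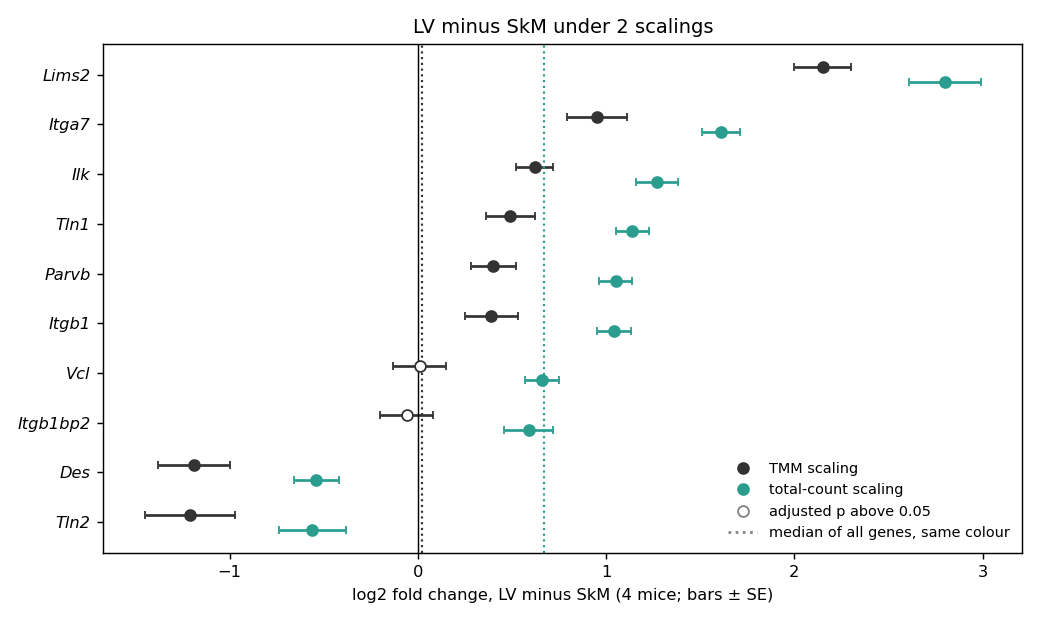
Log2 fold change of LV against SkM over 4 mice, with the SE, under TMM (dark) and under total counts (green); open points did not reach an adjusted p of 0.05, and dotted lines are the medians of all genes. Lims2 lies at 2.15 under TMM, Tln2 at -1.21, and Vcl and Itgb1bp2 lie near the median of all genes on both scales.

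Itga7 encodes the alpha subunit of the main laminin receptor of adult striated muscle. It was measured at 340 CPM in WT LV replicate 1 and at 339, 291 and 327 CPM in the E0del/+ LV libraries, and at 100 and 116 CPM in WT SkM and 106, 110 and 110 CPM in E0del/+ SkM. The tissues did not overlap, and SkM varied little (CV 5.4%). The log2 fold change was 0.95 (SE 0.16, edgeR adjusted p = 0.00129), with LV higher in 4 of 4 mice. On total counts it was 1.61, a 3.04-fold difference as the mean over mice.

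Its partner Itgb1, the beta 1 subunit shared by many integrins, had 486 CPM in WT LV replicate 1 and 446, 408 and 429 CPM in E0del/+ LV. In SkM it had 221 and 199 CPM in WT and 213, 209 and 214 CPM in E0del/+. Every LV library exceeded every SkM library, yet the fold change under TMM was small, at 0.39 on the log2 scale (SE 0.14, edgeR adjusted p = 0.0483). That call was lost with DESeq2 size factors (adjusted p = 0.0591), without a filter (0.0712) and in 3 of the 4 fits that left out a mouse, and adjusted p ran from 7.21e-05 to 0.22 over all alternatives. Per length there were 1.31 ± 0.0578 Itgb1 transcripts for each Itga7 transcript in LV (SD, n = 4, ratio of RPKM) and 1.88 ± 0.171 in SkM (SD, n = 5), ranges that did not overlap.

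Itgb1bp2 encodes melusin, a striated muscle protein that binds the cytoplasmic tail of beta 1 integrin. LV held 146 CPM in WT replicate 1 and 134, 194 and 174 CPM in E0del/+, and SkM held 114 and 113 CPM in WT and 106, 122 and 88.2 CPM in E0del/+. The lowest LV value lay just above the highest SkM value. The log2 fold change was -0.06 under TMM (SE 0.14, edgeR adjusted p = 0.715) and 0.59 on total counts (adjusted p = 0.00531), where the median of all genes was 0.67.

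Talins link the beta subunit of integrins to actin, and their paralogues went in opposite directions. Tln1, the widely expressed form, had 535 CPM in WT LV replicate 1, 493, 515 and 459 CPM in E0del/+ LV, 240 and 156 CPM in WT SkM and 237, 221 and 210 CPM in E0del/+ SkM. It was higher in LV by 0.49 on the log2 scale (SE 0.13, edgeR adjusted p = 0.0135), in 4 of 4 mice. Tln2, the form enriched in striated muscle, had 232 CPM in WT LV replicate 1 and 199, 139 and 219 CPM in E0del/+ LV, and 312 and 180 CPM in WT SkM and 288, 320 and 232 CPM in E0del/+ SkM. Its values overlapped between tissues, and WT SkM replicate 2, whose mouse is outside the fit, was the lowest SkM library for both talins. Within the 4 mice Tln2 was lower in LV each time, with a log2 fold change of -1.21 (SE 0.24, edgeR adjusted p = 0.00326), and it was also called on total counts, at -0.56 (adjusted p = 0.0263). The mouse of WT replicate 2 went the other way on total counts, with a log2 difference of 0.27.

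Vinculin is recruited by talin and binds actin. Vcl had 250 CPM in WT LV replicate 1 and 222, 206 and 236 CPM in E0del/+ LV, against 142 and 152 CPM in WT SkM and 136, 141 and 158 CPM in E0del/+ SkM. On total counts it was higher in LV by 0.66 on the log2 scale (adjusted p = 0.000607), like the median gene, and under TMM the log2 fold change was 0.01 (SE 0.14, edgeR adjusted p = 0.952). Relative to Tln1 alone there were fewer Vcl transcripts in LV, 0.75 ± 0.0772 per Tln1 transcript (SD, n = 4, ratio of RPKM). In SkM the ratio was 1.15 ± 0.271 (SD, n = 5), and the ranges did not overlap. Tln2, which made up 21.7% of the summed talin RPKM in LV and 46.6% in SkM, is not in this ratio. A ratio of Vcl to both talins was not computed.

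The kinase complex showed the largest difference among the 10 genes. Lims2 encodes PINCH-2, a LIM domain adaptor that binds integrin-linked kinase. It was measured at 118 CPM in WT LV replicate 1 and at 108, 167 and 98.4 CPM in E0del/+ LV, and at 18.4 and 12.4 CPM in WT SkM and 16.7, 15 and 19.4 CPM in E0del/+ SkM. E0del/+ LV replicate 2 was the highest library, and even the lowest LV library was far above SkM. The log2 fold change was 2.15 (SE 0.15, edgeR adjusted p = 1.73e-05), with LV higher in 4 of 4 mice, and it stayed between 2.01 and 2.8 over all alternatives.

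Ilk, the scaffold of the complex, was read at 140 CPM in WT LV replicate 1 and at 128, 159 and 129 CPM in E0del/+ LV, and at 64.8 and 54.4 CPM in WT SkM and 58.1, 51.9 and 55.4 CPM in E0del/+ SkM. It was higher in LV in 4 of 4 mice, by 0.62 on the log2 scale (SE 0.10, edgeR adjusted p = 0.00116). Parvb, the beta parvin that connects the complex to actin, had 141 CPM in WT LV replicate 1 and 126, 117 and 147 CPM in E0del/+ LV, with 62.8 and 69 CPM in WT SkM and 68.2, 57 and 68.8 CPM in E0del/+ SkM. Its log2 fold change was 0.40 (SE 0.12, edgeR adjusted p = 0.025). The calls of Tln1 and of Parvb were lost when the mouse E0del/+ replicate 1, E0del/+ replicate 3 or WT replicate 1 was left out, with adjusted p up to 0.089 and 0.135, and with Itgb1 this brought the count from 8 to 5 of 10 in each of these fits. Of the transcript ratios within the complex, that of Ilk to Lims2 differed between the tissues and that of Ilk to Parvb overlapped. Ilk transcripts per Lims2 transcript numbered 1.04 ± 0.136 in LV (SD, n = 4, ratio of RPKM) and 3.18 ± 0.488 in SkM (SD, n = 5), while those per Parvb transcript numbered 2.09 ± 0.41 and 1.73 ± 0.195.

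Desmin, like Tln2, was lower in LV. Des was measured at 1959 CPM in WT LV replicate 1 and at 2487, 2131 and 2321 CPM in E0del/+ LV, and at 2887 and 4274 CPM in WT SkM and 3039, 3256 and 3785 CPM in E0del/+ SkM. All SkM libraries were above all LV libraries, and WT SkM replicate 2 was the highest. The log2 fold change was -1.19 (SE 0.19, edgeR adjusted p = 0.00127), lower in LV in 4 of 4 mice, and -0.54 on total counts.

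Marker genes of other cell types differed between the tissues as well, in both directions, and in bulk tissue more cells of a type cannot be told apart from more RNA per cell. All 4 endothelial markers, led by Cdh5, were called higher in LV. They summed to 1006 CPM in WT LV replicate 1 and 917, 1384 and 827 CPM in E0del/+ LV, and to 174 and 86.2 CPM in WT SkM and 177, 163 and 143 CPM in E0del/+ SkM. The 4 fibroblast markers, led by Dcn, were called higher too, with sums of 698 to 1331 CPM in those LV libraries and 113 to 381 CPM in SkM. Smooth muscle and pericyte markers, led by Rgs5, summed to between 345 and 615 CPM in LV and between 45.7 and 153 CPM in SkM, 2 of 4 called higher. None of these 12 markers was at 0 in any library. In the other direction, 4 of 4 adipocyte markers, led by Cfd, 2 of 3 Schwann cell markers, led by Mbp, and 2 of 2 markers of slow fibres, led by Tnni1, were called lower in LV, and 0 of each higher. Of 3 leukocyte markers in the files, led by Lyz2, 2 were called higher in LV. E0del/+ LV replicate 2, the library highest in Lims2 and Ilk and lowest in Tln2, was also the highest in all 4 endothelial markers. Its sum of fibroblast markers, 1331 CPM, was just above the 1294 CPM of WT LV replicate 1. Of the fibroblast markers only Dcn was highest in it. Col1a1 and Col3a1 were highest in WT LV replicate 1, and Pdgfra in E0del/+ LV replicate 1. The part of these cell types in the differences between tissues was not tested.

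Whether paralogues were used in different proportions was asked next, since a share within a library needs no scaling between libraries. Tln2 made up 21.7 ± 3.97% of the summed talin RPKM in LV (SD, n = 4) and 46.6 ± 2.61% in SkM (SD, n = 5). In LV the share was 23.4% in WT replicate 1 and 22.2%, 16% and 25.2% in E0del/+, and no SkM library was below 43.9%. The difference within mice averaged -25.4 percentage points and was negative in 4 of 4 mice. All signs alike give the smallest p an exact permutation of signs can give with 4 mice, and after adjustment over 4 shares it was 0.167, so this test could not reach 0.05. With all 5 mice the difference was -24 points.

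Lims2 made up 68.6 ± 5.55% of the PINCH transcripts (Lims1 and Lims2) in LV and 49.6 ± 4.54% in SkM (SD, n = 4 and 5). The remaining PINCH gene, Lims1, was itself higher in LV by 1.03 on the log2 scale (SE 0.15, edgeR adjusted p = 0.000834). Parvb behaved differently, with 63.3 ± 5.18% of the parvin transcripts (Parva and Parvb) in LV and 81 ± 6.67% in SkM, as Parva was higher in LV by 1.50 (SE 0.13, edgeR adjusted p = 5.47e-05), more than Parvb. Both differences had the same sign in 4 of 4 mice, at 18.1 and -15.4 points, and the same adjusted p of 0.167 by exact permutation. Itga7 held 74.3 ± 4.52% of the summed RPKM of the laminin receptor subunits Itga3, Itga6 and Itga7 in LV and 80.9 ± 6.45% in SkM, and its share was higher in LV in 2 of 4 mice (exact permutation p = 0.5). Itga6, which pairs with beta 1 in many other cell types, was 1.79 higher in LV on the log2 scale (SE 0.16, edgeR adjusted p = 5.86e-05) and Itga3 0.51 (SE 0.16, adjusted p = 0.0276).

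**Figure D3:**
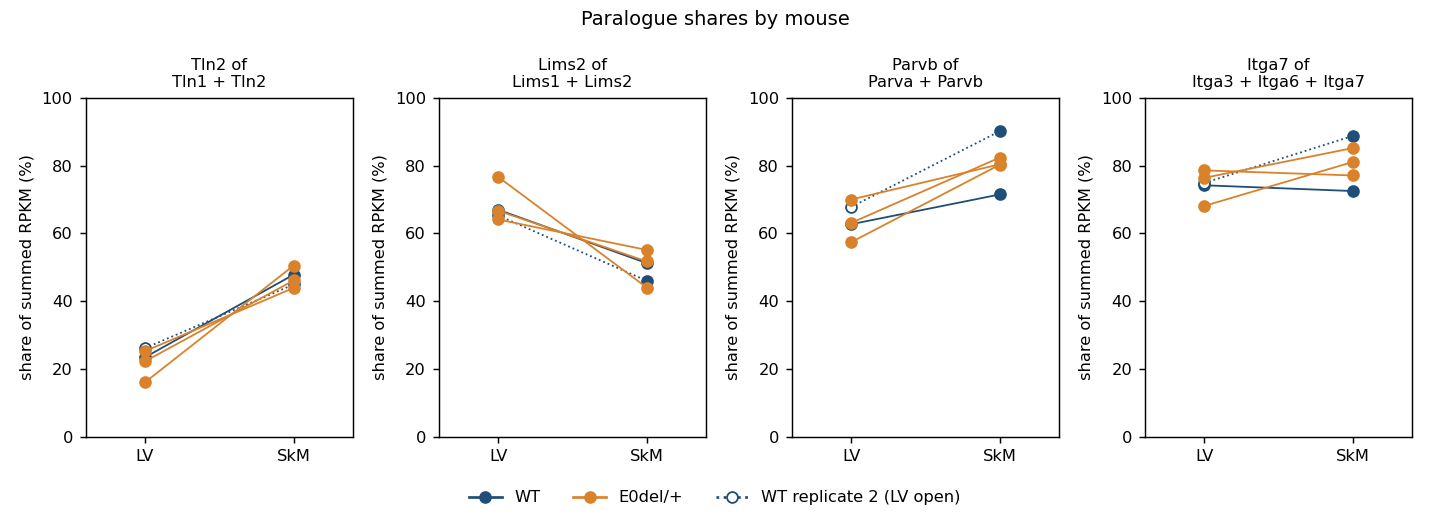
Share of 1 paralogue in the summed RPKM of its family, in percent, for LV and SkM of each mouse (WT blue, E0del/+ orange, WT replicate 2 dotted with its LV open). The Tln2 share lies at or below 26.1% in every LV library and at or above 43.9% in every SkM library, while lines of the Itga7 share cross.

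The wider integrin adhesion system was read from 50 further genes, of which 49 were in the files and 46 were tested. Of these 26 were higher in LV, 8 were lower and 12 were not called, with a median log2 fold change of 0.99 against 0.02 for all genes, of which 31.5% were higher and 29.8% lower. On total counts 33 were higher and 3 lower, and the median was 1.64 against 0.67 for all genes, of which 57.5% were higher and 12.7% lower. By role, 6 of the 7 matrix ligands were higher in LV and 0 lower, 7 of 14 integrin subunits were higher and 2 lower, and 13 of 25 adaptors and other partners were higher and 6 lower. The number of lower adaptors depended on the scaling. On total counts 16 adaptors and other partners were higher and 1 lower, 10 integrin subunits were higher and 2 lower, and all 7 ligands were higher.

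Among the genes of this list with large differences were the fibronectin receptor subunit Itga5 (2.52, SE 0.21, edgeR adjusted p = 4.17e-05), the laminin chain Lamb1 (2.49, SE 0.22) and Itga9 (2.41, SE 0.32), all higher in LV. Lower in LV were Itga4, known from leukocytes (-3.44, SE 0.18), Itgav (-1.10, SE 0.13), Fermt2, the kindlin that activates integrins together with talin (-0.94, SE 0.13), and paxillin, Pxn (-0.86, SE 0.11). On total counts Pxn was not called (-0.21, edgeR adjusted p = 0.168), and its CPM values overlapped between the tissues. Itga4 was low throughout, at 1.92 to 5.72 CPM in LV and 13.7 to 38.6 CPM in SkM.

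**Figure D4:**
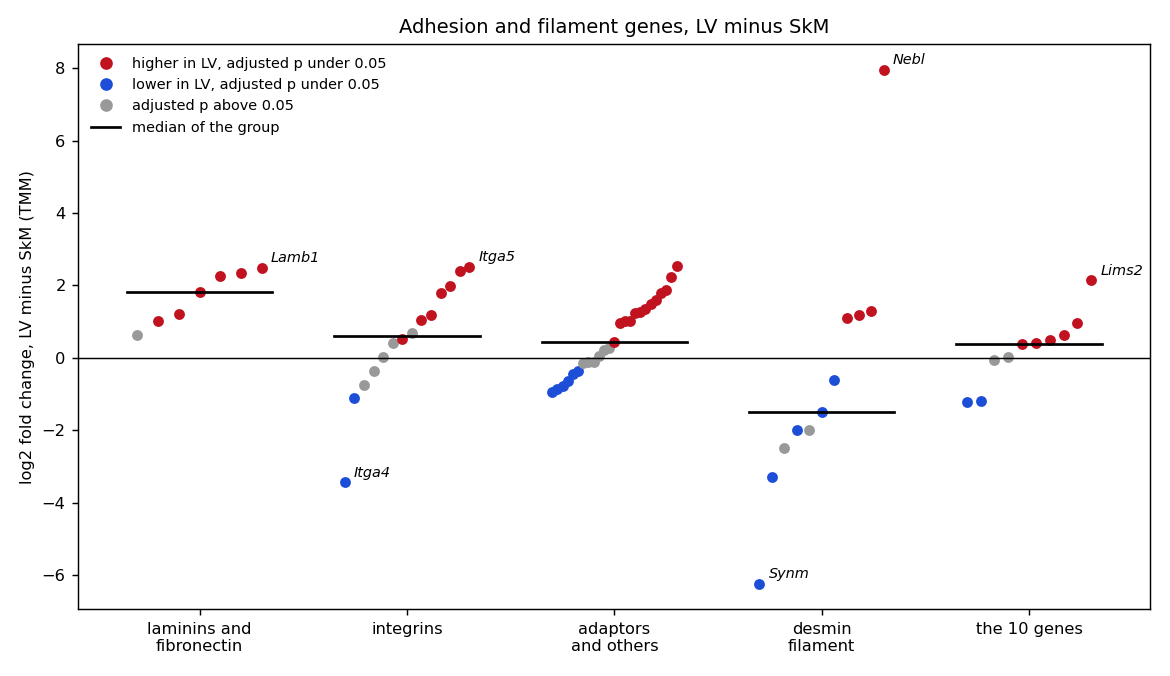
Log2 fold change of LV against SkM under TMM for the adhesion list by role, the desmin filament list and the 10 genes, 1 point a gene, with the median of each group as a bar (red higher and blue lower in LV at an adjusted p under 0.05, grey not called). Matrix ligands lie mostly high, and the filament list spreads from Synm at -6.24 to Nebl at 7.96.

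Genes that work with desmin differed in both directions. Of 11 genes on the desmin filament list, 4 were higher in LV, 5 were lower and 2 were not called, with a median of -1.50, beside 31.5% of all genes higher and 29.8% lower. On total counts 4 were higher, 3 were lower and 4 were not called, with a median of -0.85. Synm, whose product synemin forms filaments together with desmin, had 36.3 CPM in WT LV replicate 1 and 40.3, 53.2 and 31.7 CPM in E0del/+ LV, and 1817 and 2010 CPM in WT SkM and 1699, 1895 and 2287 CPM in E0del/+ SkM. The log2 fold change was -6.24 (SE 0.23, edgeR adjusted p = 1.19e-06), the largest fall of the list. Per length, there were 210 ± 51.1 Des transcripts for each Synm transcript in LV (SD, n = 4, ratio of RPKM) and 6.5 ± 0.767 in SkM (SD, n = 5).

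Syncoilin, Sync, and the cytolinker plectin, Plec, were lower in LV as well, by log2 fold changes of -2.00 (SE 0.26, edgeR adjusted p = 0.00041) and -1.50 (SE 0.19, adjusted p = 0.000376). The desmin chaperone Cryab was higher in LV at 612 to 836 CPM against 135 to 285 CPM in SkM (1.28, SE 0.21, adjusted p = 0.00128). Vim, the filament of mesenchymal cells, and Nes were higher too, at 1.18 (SE 0.23) and 1.11 (SE 0.11). Nebl, named after its values were seen, was almost absent from SkM, at 0.0572 to 0.432 CPM, and had 67.4 to 139 CPM in LV.

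For Des and Vcl, whose proteins join this system to intermediate filaments and to actin, the 250 bases before the start are shown, from RefSeq on GRCm38.p6. Promoter windows were used for 6 of the 10 genes. Both printed windows are on the plus strand, chr1:75360042-75360291 for Des and chr14:20929148-20929397 for Vcl, and read 5′ to 3′ up to the last base before the RefSeq start. That start lies upstream of the gene start in the count files given above, and positions of motifs are counted from it. Capitals mark E-boxes (CANNTG) in Des, and a CArG box and an MCAT element (CATTCC) in Vcl, where the latter lies on the other strand.
Des: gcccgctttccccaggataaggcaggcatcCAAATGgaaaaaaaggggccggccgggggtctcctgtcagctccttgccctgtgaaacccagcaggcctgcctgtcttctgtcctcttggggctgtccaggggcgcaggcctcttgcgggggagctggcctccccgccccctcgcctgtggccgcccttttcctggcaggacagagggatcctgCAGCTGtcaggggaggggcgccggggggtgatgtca
Vcl: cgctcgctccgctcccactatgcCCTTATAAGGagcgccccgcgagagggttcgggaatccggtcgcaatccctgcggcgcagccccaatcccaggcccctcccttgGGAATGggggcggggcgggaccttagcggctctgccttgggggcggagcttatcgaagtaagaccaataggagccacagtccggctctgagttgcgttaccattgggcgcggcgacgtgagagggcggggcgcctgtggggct
The E-boxes of Des begin at -220 and -36 from the RefSeq start. In Vcl the CArG box begins at -227 and the MCAT element at -143. Searched on both strands in the windows of the 6 genes, an E-box was found for 4 genes, an MCAT element for 2, a CArG box for 1 and a MEF2 box for 0. Of all 32851 windows of the same length 66.2% held an E-box, 12.6% an MCAT element, 1.47% a CArG box and 0.508% a MEF2 box. A match describes the letters and no more.

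The genes whose levels followed each of the 10 most closely over the 9 libraries other than WT LV replicate 2 were found among 8612 genes with a mean of at least 10 CPM, by Pearson's r of log2 CPM. These libraries share the contrast of tissues, so high values of r are common. For Itga7 they were Efnb3, Ppif and Chrm2 (r = 0.997 each), for Itgb1 Tmem201 (0.998), Lclat1 and Ctnna1, and for Tln1 Spin1, Zmiz1 and Colec12 (0.998 each). Ilk was followed by Psme1, Psmb10 and Rock1 (0.997 each), Lims2 by Arhgap23 and Plxnd1 (0.999 each) and Plekhg5 (0.998), and Parvb by Mrpl9 (0.996), Wipi1 and Prkaca. For Vcl they were Zadh2 (0.993), Reep5 and 1810012P15Rik, and for Tln2 AU022252 (0.985), Mthfd1 and Eif2c2. Des had Setd3 (0.987) and Hdac3 (0.973), and the lowest values belonged to Itgb1bp2, with Naa10 (0.960), Srsf9 (0.957) and 2010111I01Rik (0.946). None of these genes is 1 of the 10.

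WT LV replicate 2 was set beside the other LV libraries. Of the 10 genes, 5 lay below the range of the other 4 LV libraries, 4 inside it and 1 above it. Itga7 had 278 CPM, Tln1 433, Ilk 116, Lims2 87.6 and Parvb 116, each below the others, while Vcl, at 304 CPM, was higher than in any of the other 9 libraries. For 6 genes with tissue means at least 2-fold apart, this library lay between 12.9% and 33.2% of the way from the LV mean to the SkM mean (median 24.4%). The 7 fast fibre markers lay between 16.3% and 24.3% of the way (median 22.3%). Synm was at 566 CPM there, 27.6% of the way, Plec at 1205 CPM, above the other LV libraries, and Cryab at 446 CPM, below them. Other genes of the filament list lay further along, with Nes at 35.1%, Cryab at 49.3% and Sync at 50%. Vcl did not lie between the tissues, since its SkM values were the lower ones, and neither did Vim, at 391 CPM against 167 to 318 CPM in the other LV libraries.

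The genotypes were set against each other within LV and within SkM to see whether loss of 1 copy of the titin enhancer goes along with a different level of these genes. The deletion lies outside the exons, so counts cannot show it directly. Ttn itself was read at 7959 and 9344 CPM in WT LV and at 7737, 5560 and 6597 CPM in E0del/+ LV, where every E0del/+ library was below both WT libraries. The log2 fold change was -0.45 (SE 0.27, edgeR adjusted p = 0.997) and -0.25 (SE 0.39) without WT LV replicate 2. In SkM it was read at 24205 and 15856 CPM in WT and at 20092, 18854 and 13585 CPM in E0del/+ (-0.17, SE 0.24, edgeR adjusted p = 1), and the genotypes overlapped. That SkM value was 0.02 without WT SkM replicate 1, -0.33 without WT SkM replicate 2 and -0.01 with batch as a block.

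In LV, 0 of the 10 genes passed the test, and 0 of all 13420 genes did (0%), with 564 at an unadjusted p under 0.05 in edgeR and 0 calls with DESeq2. The 10 genes had 0 at an unadjusted p under 0.05 with either tool. Vcl showed the largest log2 fold change, at -0.39 (SE 0.22, edgeR adjusted p = 0.997), followed by Tln2 at -0.32 (SE 0.26), Lims2 at 0.20 (SE 0.21) and Itgb1bp2 at 0.16 (SE 0.19). The other 6 lay between -0.13 and 0.05. For 8 of the 10 the fold change was within 1 SE of 0. In TMM-scaled CPM the genotypes overlapped for all 10 genes, whereas 16.5% of all genes tested had genotypes that did not overlap. On total counts the Vcl values did not overlap, at 250 and 304 CPM in WT and 206 to 236 CPM in E0del/+. The share of all genes without overlap was not computed on that scale, and the 304 CPM is that of WT LV replicate 2.

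The high Vcl value of WT LV replicate 2 bore on the fold change of Vcl. Without that library the log2 fold change of Vcl was -0.16 (SE 0.27), that of Tln2 -0.30 (SE 0.33), that of Lims2 0.06 (SE 0.27) and that of Des 0.25 (SE 0.35), in a fit where the single WT library is taken to vary like the others. Within batch 1 E0del/+ minus WT was -0.14 for Vcl and -0.19 for Tln2, and within batch 2, which holds WT LV replicate 2, it was -0.83 and -0.91. Batch 3 has no WT mouse. Tln2 also rested on E0del/+ LV replicate 2, the lowest LV library at 139 CPM, and was -0.10 (SE 0.15) without it. Lims2 was 0.01 (SE 0.15) without that library, which has 167 CPM of it.

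In SkM, 0 of the 10 and 0 of all 13154 genes passed the test (0%), with 114 at an unadjusted p under 0.05 in edgeR and 0 calls with DESeq2. Fold changes were between -0.11 for Des and Itgb1bp2 and 0.22 for Tln2 on the log2 scale, with SE from 0.11 to 0.28. Of the 10 genes 9 lay within 1 SE of 0. The genotypes did not overlap for 1 of 10, Ilk, which was lower in E0del/+ (54.1 to 55.9 TMM-scaled CPM, against 59.2 in both WT libraries), beside 11.9% of all genes tested. In CPM on total counts the Ilk values of the genotypes overlapped. The WT libraries differed from each other by 0.82 on the log2 scale for Des and 0.54 for Tln2, more than any fitted fold change of the 10 genes between the genotypes in SkM, and without WT SkM replicate 2 the fold changes of Des and Tln2 were 0.36 (SE 0.24) and -0.02 (SE 0.24).

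With batch as a replicate block and WT LV replicate 2 included, 5 genes were called in LV and 1 in SkM, 0 of the 10 among them. All were lower in E0del/+, and they are named here after their values were seen. Kdm5d, Eif2s3y, Uty and Ddx3y, which are genes of chromosome Y, and the muscle growth inhibitor Mstn were called in LV, and Eif2s3y in SkM. The block was not fitted without WT LV replicate 2, and without both the block and that library 0 genes were called in LV. The comparisons of genotype are not adjusted for sex, and its part in them was not tested. Of the adhesion and filament lists 0 genes were called in either tissue, with or without the block. The adhesion list had a median log2 fold change of 0.01 in LV and 0.05 in SkM, where all genes had -0.01 in both, and the filament list had -0.22 and 0.10. Its largest values in LV were those of Krt8 at -3.71 (SE 1.03), Synm at -2.99 (SE 0.85, edgeR adjusted p = 0.997) and Krt18 at -2.96 (SE 0.78). For Krt8 and Krt18, named after their values were seen, WT LV replicate 2 was the highest LV library, at 18.5 and 13.7 CPM, and for Synm WT LV replicate 2 had 566 CPM and every other LV library between 31.7 and 53.2 CPM.

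The difference of the genotype effects between tissues was tested over all 10 libraries, within mice. For 0 of the 10 genes and 0 of all 14327 (0%) it passed the test, with 238 genes at an unadjusted p under 0.05 in edgeR and 0 calls with DESeq2. The effect in SkM exceeded that in LV by 0.56 for Tln2 (SE 0.46, edgeR adjusted p = 1) and by 0.33 for Vcl (SE 0.25), and for Itgb1bp2 the difference was -0.29 (SE 0.27). These values changed with the mice included. Leaving out a mouse gave 0.16 to 0.87 for Tln2, 0.20 to 0.44 for Vcl and -0.40 to -0.09 for Itgb1bp2.

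**Figure D5:**
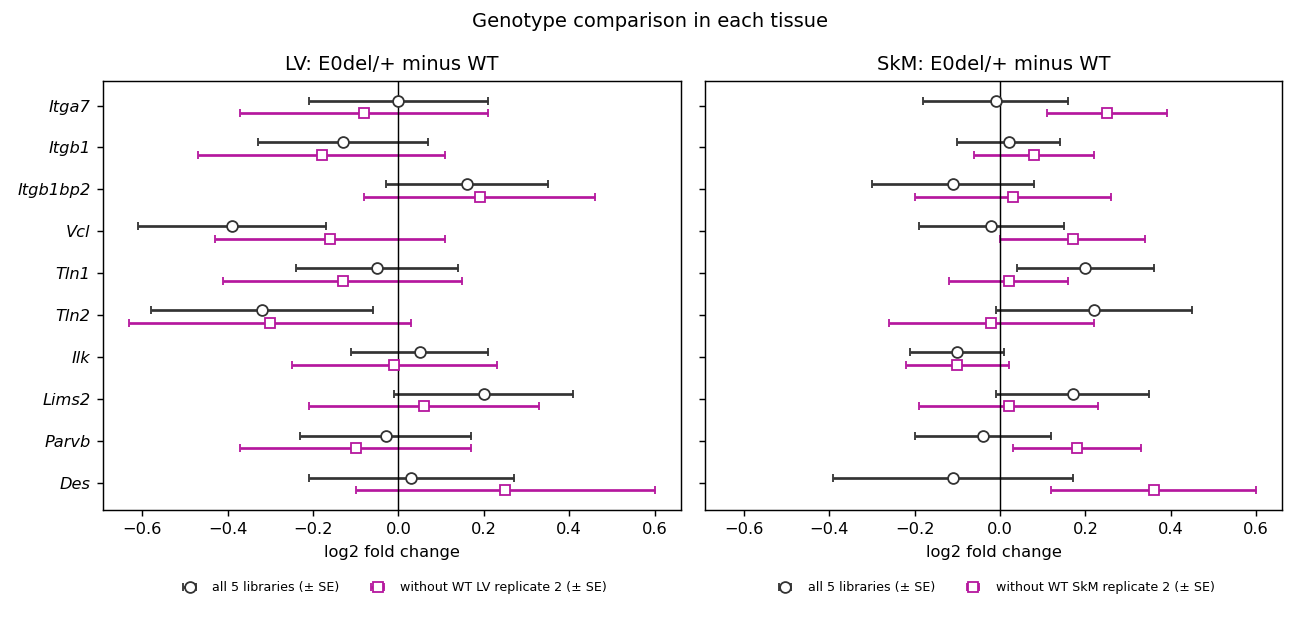
Log2 fold change of E0del/+ against WT for the 10 genes in LV (left) and SkM (right), with the SE, over all 5 libraries of a tissue (circles) and without WT replicate 2 (squares). No gene reached an adjusted p of 0.05; Vcl moves from -0.39 to -0.16 in LV and Des from -0.11 to 0.36 in SkM when WT replicate 2 is left out.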

How the data were processed

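RNA of the 5 mice (2 WT, 3 E0del/+), from LV and from SkM, was extracted with TRIzol, selected for polyA in a pair of rounds and made into Nextera XT libraries, which carry no strand. The submitters' processing notes name STAR, DESeq2 and mm10, without versions. The authors deposited a raw count per gene and library. The RPKM values they deposited equalled the CPM per kilobase of exon, within 1e-06, in 10 of 10 libraries. Samples were grouped by tissue and genotype from the labels, and tissues were paired by the mouse number in the library names.

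Counts were tested in R 4.3.3 with edgeR 4.0.16 (filterByExpr, TMM, quasi-likelihood test, Benjamini-Hochberg adjustment, threshold 0.05). The SE of a fold change is its size divided by the square root of its F statistic. The 4 mice other than WT replicate 2 entered the comparison of tissues, with mouse as a term; genotypes were compared within each tissue over 5 libraries, and the interaction over 10. Alternatives were DESeq2 1.42.0, DESeq2 size factors, total counts, no filter, blocks by replicate number and leaving out each mouse or library. The scripts were tested on simulated data. For shares the signs of the differences of mice were permuted exactly, with a two-sided p (SciPy 1.17.1).

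The labels call the replicate number a batch, so it pairs mice across genotypes. The correlation of paired mice's deviations from their group means was 0.0309 and -0.179 in LV for batches 1 and 2, and 0.432 and 0.246 in SkM. Tissues of a mouse were paired because they come from 1 animal (correlations from -0.128 to 0.156). Replicate libraries of a group differed by more than sampling noise (chi-square per degree of freedom at least 12.1).

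The 10 genes and the lists were chosen with earlier results of these data known. Named genes were the 10 and Ttn, their paralogues, Synm, Sync, Plec, Nes, Vim and Cryab, up to 4 genes a direction of the adhesion list with the largest fold change among those called with at least 10 CPM, every list gene called between genotypes, and up to 3 of the closest genes by correlation. Further marker lists gave sums in SkM of 17.3 to 302 CPM for slow fibres (6.18 to 11.9 CPM in LV), 9.09 to 104 CPM for leukocytes (61.4 to 130 CPM in LV), 7.55 to 1021 CPM for adipocytes (1.4 to 241 CPM in LV), 13.4 to 82.1 CPM for Schwann cells (12.8 to 27.9 CPM in LV) and 2.52 to 20 CPM for blood (21.7 to 31.6 CPM in LV), where Hba-a1 was at 0 in every library.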

Additional observations from a re-analysis of the deposited data

Results flagged for a closer look

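WT LV replicate 2, which the comparison of tissues does not use, held 25616 CPM of the 7 fast skeletal muscle markers in sum, while the other 4 LV libraries held between 106 and 122 CPM. Myh4 alone was at 18473 CPM there and between 70.3 and 81.7 CPM in the other LV libraries. Adipocyte markers were higher in it as well, at 241 CPM against 1.4 to 20.5 CPM. The cause was not tested.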

How the results depend on the processing

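For LV against SkM, 7 to 10 of the 10 genes were called under other scalings, filters, tools and designs. When a mouse was left out, so that fewer samples entered, 8 were called without E0del/+ replicate 2. In each of the other fits of that kind 5 were called. Without E0del/+ replicate 2 the SE of Itgb1 was 0.08, against 0.14 with all 4 mice, and the cause was not tested. Under total counts Itgb1bp2 reversed to 0.59, with Vcl at 0.66, because that scaling moves all genes; for Vcl, leaving out a mouse gave -0.09 to 0.14. The 4 shares kept their sign under every alternative run. Leaving out the replicate block by mouse changed no call of the 10 genes.

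Between genotypes the 10 genes gave 0 calls under all alternatives run. With the replicate block, genes called numbered 5 in LV and 1 in SkM in place of 0. Leaving out a library gave 0 to 578 calls in LV, the 578 (574 lower in E0del/+) without WT LV replicate 1, when WT LV replicate 2 is the only WT library, and 0 to 155 in the interaction, 155 without the mouse WT replicate 1. Uncalled values near 0 changed sign. In LV total counts gave 0.01 for Tln1 and 0.02 for Parvb, and the replicate block -0.02 for Des. Leaving out a library in LV gave -0.13 to 0.05 for Tln1, -0.01 to 0.13 for Ilk, -0.18 to 0.10 for Parvb and -0.15 to 0.25 for Des. In SkM it gave -0.22 to 0.25 for Itga7, -0.03 to 0.08 for Itgb1, -0.26 to 0.03 for Itgb1bp2, -0.18 to 0.17 for Vcl, -0.02 to 0.52 for Tln2, -0.22 to 0.18 for Parvb and -0.47 to 0.36 for Des. The cause was not tested.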
